A study of Mus musculus with 4 samples.

Results

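The mitosis and G2/M genes are 34 genes, taken by name, that encode the cyclins, kinases, kinetochore and spindle proteins of cell division. Of these, 33 had a probe set annotated with exactly 1 gene symbol, 34 probe sets in all among the 35556 on the array. Only Ccnb1, which encodes cyclin B1, had none, so its level was not analysed and it enters only the promoter counts. The values came from 4 Affymetrix Mouse Gene 1.0 ST arrays, which carry probes along whole transcripts. Each array held RNA from Flt3-negative LSK cells, the stem-cell-rich bone marrow fraction sorted for Sca-1 and c-Kit and against lineage proteins and surface Flt3. The 2 arrays labelled GABPα-deficient came from mice with Mx1Cre, 1 floxed GABPa allele and 1 minus allele (FL/-). The 2 control arrays came from mice with Mx1Cre, 1 floxed allele and 1 plus allele (FL/+), so Mx1Cre and a floxed allele were common to all mice. Every mouse received pIpC, the interferon inducer that turns on Mx1Cre in marrow and other tissues, and cells were taken 4 days after the last dose. Mice were 6 to 8 weeks old, after 4 generations of backcross to C57/BL6. Between 800 pg and 50 ng of RNA entered the NuGEN amplification. Nothing in the labels tells if 1 mouse or a pool gave each sample, or if the samples are from separate animals. All p-values therefore rest on the spread between the 4 arrays, which may be technical.

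Cells enter mitosis when cyclins A and B activate the kinase CDK1, helped by the phosphatase CDC25C and by the Polo and Aurora kinases. The spindle then attaches to kinetochores on the centromeres, and a checkpoint of BUB and MAD proteins and the kinase TTK holds back the anaphase-promoting complex until every chromosome is attached. Once its partners CDC20 and UBE2C act, the cyclins are destroyed, the chromatids part and the cytokinesis proteins divide the cell. Most of these genes are transcribed late in the cycle, through NF-Y at CCAAT boxes, the MuvB complex with B-MYB and FOXM1 at cell cycle homology elements, and release from repression by DREAM. Adult hematopoietic stem cells are mostly quiescent, so such genes are often used as markers of cycling progenitors. GABPα is an ETS-family factor whose binding sites have the core CCGGAAG.

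Promoter sequence shows how these motifs are arranged in the members with a low unadjusted p in the comparison below. Of the 34 genes, 28 had a promoter in the RefSeq table of GRCm38.p6, with 30 start sites between them. In the 250 bases before a start, on both strands, CCAAT was present in 22 of these 30 promoters (73.3%), against 33.8% of all 32851 promoters in the table. TTTGAA or TTTAAA, the letters of the cell cycle homology element, stood in 17 of 30 (56.7%), against 25.2%. CCGGAAG stood in 6 of 30, against 6.9% of all promoters, namely before Mki67, Cdc20, Aurka, Plk4, Cenpf and Ndc80. None of the motifs searched contains another of them, and a match is a run of letters, not a measured binding site. The 150 bases before the start are printed below for 3 genes that read higher in deficient cells (Cenpa, Plk1 and Ube2c) and the 2 that read lower (Prc1 and Plk4). Capitals mark these 4 motifs on either strand. Cenpa, Plk1, Ube2c and Prc1 carried both a CCAAT box and a cell cycle homology element, in whichever direction their values lay. In all, 13 of the 28 genes carried both, Ccnb1 among them. Plk4 had no CCAAT in its 250 bases. It carried a TTTAAA that began 135 bases before its start and the ETS core, which began 12 bases before it. For Prc1, with 2 starts in the table, the start shown is the one whose window held both motifs. Of the other genes below with a low p, Ccnb2 and Birc5 are not printed. Ccnb2 carried CCAAT and TTTGAA, while Birc5 had no CCAAT and a TTTAAA that began 220 bases before its start. Aurkb and Ccna2 had no entry.
Cenpa: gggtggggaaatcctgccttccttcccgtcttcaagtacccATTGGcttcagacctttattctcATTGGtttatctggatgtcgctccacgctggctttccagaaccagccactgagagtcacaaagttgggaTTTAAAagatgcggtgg
Plk1: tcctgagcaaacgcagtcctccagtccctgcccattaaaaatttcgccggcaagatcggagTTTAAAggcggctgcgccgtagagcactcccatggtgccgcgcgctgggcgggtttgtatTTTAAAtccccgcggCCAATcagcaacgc
Ube2c: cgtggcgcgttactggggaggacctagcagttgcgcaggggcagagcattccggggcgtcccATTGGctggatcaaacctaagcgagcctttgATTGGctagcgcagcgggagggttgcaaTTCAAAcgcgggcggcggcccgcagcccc
Prc1: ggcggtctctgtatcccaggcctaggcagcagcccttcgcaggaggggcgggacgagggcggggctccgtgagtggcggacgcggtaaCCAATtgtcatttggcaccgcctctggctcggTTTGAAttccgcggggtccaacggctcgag
Plk4: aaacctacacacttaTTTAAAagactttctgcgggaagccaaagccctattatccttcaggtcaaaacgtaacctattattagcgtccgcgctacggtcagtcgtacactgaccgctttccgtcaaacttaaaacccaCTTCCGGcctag
The stretches lie at chr5:30666736-30666885, plus strand (Cenpa), chr7:122159285-122159434, plus strand (Plk1), chr2:164769779-164769928, plus strand (Ube2c), chr7:80294326-80294475, plus strand (Prc1), chr3:40799801-40799950, plus strand (Plk4) of GRCm38.p6, 5′ to 3′ along the gene.

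The comparison asked how the mitotic programme of stem-cell-enriched marrow compares between GABPα-deficient and control mice. The genes did not move together. Of the 33 measured, 13 read higher and 20 lower on the deficient arrays by their mean log2 value, with a median difference of −0.31, against 0.15 over all probe sets. Mitotic regulators such as Cenpa, Plk1, Aurkb, Birc5, Ube2c and cyclins A2 and B2 read higher, by 1.43 to 2.68-fold, while Prc1, Plk4, Bub1, Ttk and the 5 spindle genes read lower. No member passed an adjusted p under 0.05 in limma, where 0 of all probe sets (0%) passed and the members' adjusted p ran from 0.328 to 0.979. At an unadjusted p under 0.05, 7 members were higher, with 6.64% of all probe sets, and 2 were lower, with 5.25%. These shares depend on scaling, since cyclic loess turned the split of all probe sets to 2349 lower and 1191 higher, against 1865 and 2360, and moved their median difference to −0.0045. It left 6 members higher and 2 lower at an unadjusted p under 0.05. The 2 groups did not overlap for 10 members that were higher in deficient cells, with 38.9% of all probe sets, and for 5 that were lower, with 14.0%, together 15 genes, with 52.9%. Those members' shares lie near the background and say nothing of their own.

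**Figure D1:**
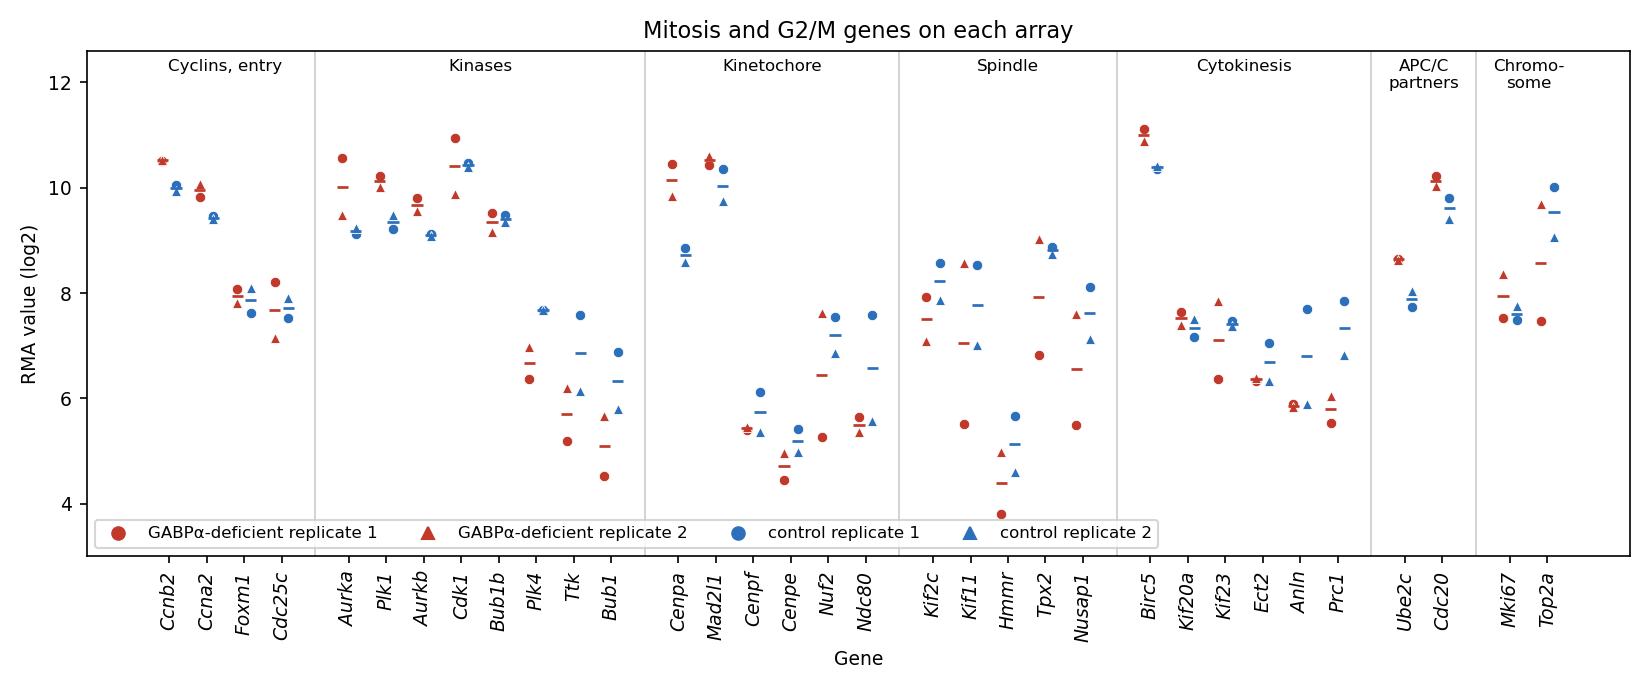
RMA values (log2, vertical axis) of the 33 measured genes on each array, by role. Red symbols are the arrays labelled GABPα-deficient and blue the controls, circles replicate 1 and triangles replicate 2, with a bar at each mean of 2 arrays. Cenpa, Plk1, Aurkb, Birc5 and the cyclins lie apart with deficient above control, while Kif11, Nuf2, Nusap1, Tpx2 and Top2a spread widely within the deficient pair.

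Single arrays weighed heavily on these counts, and the share of all probe sets moved with each array left out. Without deficient replicate 1, 3 members were higher and 1 lower at an unadjusted p under 0.05, with 5.17% and 5.66% of all probe sets, and the median difference was 0.066. Without deficient replicate 2 there were 5 higher and 6 lower, with 6.18% and 5.94% of all probe sets. Without control replicate 1 there were 3 higher and 0 lower, with 2.01% and 4.47% of all probe sets, and the median difference was −0.0042. Without control replicate 2 there were 3 higher and 6 lower, with 2.96% and 6.45% of all probe sets.

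Markers of other cell types, and of the sorted cells themselves, also differed between the groups. For the 18 measured erythroid markers of 20 listed, the summed linear level was 16157 and 18325 on the deficient arrays, against 5342 and 5268 on the controls, and all 18 read higher. Klf1, the defining erythroid factor, read 9.68 and 9.65 on the deficient arrays, against 7.90 and 7.90 on the controls. Markers of macrophages (18 of 18 higher) summed to 4755 and 2680 in deficient samples, against 1367 and 1541 in controls. The sums of these 2 lists were higher on both deficient arrays. The groups overlapped for the erythroid genes Epb42, Hemgn and Tfrc and for the macrophage genes C1qc, Cd68 and Csf1r. The macrophage protein Adgre1 (F4/80) read 6.79 and 5.96 in deficient samples, against 5.70 and 5.56 in controls. Stromal and endothelial markers (9 of 14 higher) summed to 3350 and 2856 in deficient samples, against 1448 and 1366 in controls. By their means 23592 of all 35556 probe sets read higher, and the other 5 markers, Tek, Vwf, Pdgfrb, Pecam1 and Emcn, read lower. The gap between those sums rested largely on Sparc and Sfrp4. Sparc, a stromal matrix protein among them, read 10.38 and 9.98 in deficient samples, against 6.19 and 6.56 in controls. Lists of stem and progenitor cells and of megakaryocytes lay the other way. Markers of stem and progenitor cells, with Flt3 set aside (10 of 11 lower), summed to 1508 and 1711 in deficient samples, against 7018 and 6285 in controls, and megakaryocyte markers (8 of 8 lower) to 1690 and 984 in deficient samples, against 4123 and 4497 in controls. Kit, the gate's c-Kit, read 7.70 and 8.50 in deficient samples, against 10.21 and 10.21 in controls. Cd34, of stem and progenitor cells, read 8.00 and 7.53 in deficient samples, against 11.30 and 11.31 in controls. Of those 11 genes, 9 were lower on both deficient arrays than on both controls, while Fgd5 (difference 0.18) and Mycn (−0.41) overlapped. Flt3, whose protein the gate excluded at the surface, read 5.68 and 5.95 in deficient samples, against 8.43 and 9.26 in controls. Ly6a, for Sca-1, had no single-symbol probe set. Granulocyte and monocyte markers summed to 13092 and 10120 in deficient samples, against 13679 and 11916 in controls (10 of 16 higher). B, T and NK cell markers summed to 3132 and 4187 in deficient samples, against 3337 and 2831 in controls (14 of 16 higher), and the sums of both lists overlapped between the groups. RMA values hold no true 0, so no marker could be called absent. The part of these shifts in the mitotic values was not tested, and in bulk samples fewer dividing cells and less RNA per cell cannot be told apart. For Gabpa itself the readings were 6.43 and 7.85 on the deficient arrays, against 8.43 and 7.28 on the controls, and the groups overlapped. Its position relative to the deleted exons is unknown here, and it therefore checks nothing about the labels.

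Among cyclins and other regulators of entry, cyclins B2 and A2 lay apart from the controls. Ccnb2, which encodes cyclin B2, read 10.51 and 10.53 on the deficient arrays, against 10.06 and 9.94 on the controls. Both deficient arrays lay above both controls, by 0.52 on the log2 scale (SE 0.14, limma adjusted p = 0.401). Ccna2, cyclin A2 of S phase and G2, read 9.83 and 10.07 in deficient samples, against 9.46 and 9.41 in controls, again with no overlap. Its difference was 0.52 (SE 0.16, adjusted p = 0.408). With 1 array left out, Ccnb2 stayed between 0.46 and 0.58 and Ccna2 between 0.39 and 0.64. The transcription factor and phosphatase of this group showed no such separation. Foxm1, the forkhead activator of G2/M genes, read 8.08 and 7.82 in deficient samples, against 7.62 and 8.09 in controls (difference 0.093, SE 0.24). Cdc25c read 8.21 and 7.14 in deficient samples, against 7.52 and 7.91 in controls, so that its deficient arrays enclosed both controls.

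The 8 mitotic kinases divided in direction, with a median difference of −0.049. Plk1, the Polo kinase of mitotic entry and spindle assembly, read 10.23 and 10.01 on the deficient arrays, against 9.22 and 9.48 on the controls. The groups did not overlap, and the difference was 0.77 (SE 0.18, adjusted p = 0.382), or 1.70-fold. Aurkb, the kinase of the chromosomal passenger complex, read 9.80 and 9.56 in deficient samples, against 9.12 and 9.09 in controls, a difference of 0.58 (SE 0.16, adjusted p = 0.406). Aurka, the centrosomal Aurora kinase, read 10.56 and 9.49 on the deficient arrays, against 9.13 and 9.24 on the controls. It too lay apart, but the 2 deficient arrays were 1.07 from each other, and the difference of 0.84 (SE 0.41) ran from 0.30 to 1.37 with 1 array left out. Cdk1, the kinase that the A and B cyclins activate, differed by −0.025 (SE 0.41). Its readings were 10.94 and 9.88 in deficient samples, against 10.47 and 10.40 in controls, so the deficient arrays lay on either side of the controls.

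The remaining kinases were level or lower. Plk4, which drives centriole duplication, read 6.36 and 6.97 on the deficient arrays, against 7.67 and 7.67 on the controls. Both deficient arrays were below both controls, by a mean of −1.0 on the log2 scale (SE 0.26, adjusted p = 0.393), and the difference ran from −1.30 to −0.70 with 1 array left out. The checkpoint kinase Bub1 read 4.52 and 5.66 in deficient samples, against 6.89 and 5.79 in controls. Its groups just failed to overlap, with a difference of −1.25 (SE 0.59, adjusted p = 0.442). Ttk, the kinase MPS1 that starts checkpoint signalling, read 5.20 and 6.19 in deficient samples, against 7.59 and 6.14 in controls. Deficient replicate 2 slightly exceeded control replicate 2, and the difference was −1.17 (SE 0.65). Bub1b, which encodes the checkpoint protein BUBR1, read 9.52 and 9.15 in deficient samples, against 9.48 and 9.34 in controls, and differed by −0.074 (SE 0.20). Plk1 and Plk4 thus lay on opposite sides of the controls, as did Aurkb and Bub1.

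Kinetochore genes included the member with the largest positive difference. Cenpa, the histone H3 variant that marks centromeres, read 10.45 and 9.85 on the deficient arrays, against 8.86 and 8.59 on the controls. Every deficient array lay above every control, with means of 10.15 ± 0.42 in deficient samples and 8.72 ± 0.19 in controls (SD, n = 2 each). The difference of 1.42 (SE 0.27, limma adjusted p = 0.328) equals 2.68-fold and ran from 1.13 to 1.72 with 1 array left out. Mad2l1, the checkpoint inhibitor MAD2, read 10.44 and 10.61 in deficient samples, against 10.35 and 9.74 in controls. The groups did not overlap, though deficient replicate 1 and control replicate 1 differed little (difference 0.48, SE 0.27, adjusted p = 0.466).

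The other 4 kinetochore members read lower by their means, but the groups overlapped for Ndc80, Nuf2 and Cenpf. Ndc80, the core of the outer kinetochore's microtubule attachment, read 5.64 and 5.36 in deficient samples, against 7.59 and 5.57 in controls. The difference of −1.08 (SE 0.75) rested on control replicate 1, and without that array it was −0.071. Nuf2, the direct partner of NDC80, read 5.26 and 7.63 on the deficient arrays, against 7.55 and 6.87 on the controls. Here deficient replicate 1 stood alone, and without it the difference of −0.76 (SE 0.90) became 0.42. Although the 2 proteins belong to 1 complex, a different array set each difference. Its other subunits, from the further genes below, divided in direction. Spc24 differed by 0.40 (SE 0.28), without overlap, and Spc25 by −0.56 (SE 0.53), with overlap. Cenpe, a kinetochore motor, read 4.46 and 4.96 in deficient samples, against 5.42 and 4.98 in controls, with adjacent values barely apart. Cenpf, a large kinetochore protein of G2 cells, differed by −0.31 (SE 0.30), and without control replicate 1 by 0.061. For Cenpe and Bub1, as for Hmmr below, at least 1 array read below its own lower quartile.

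**Figure D2:**
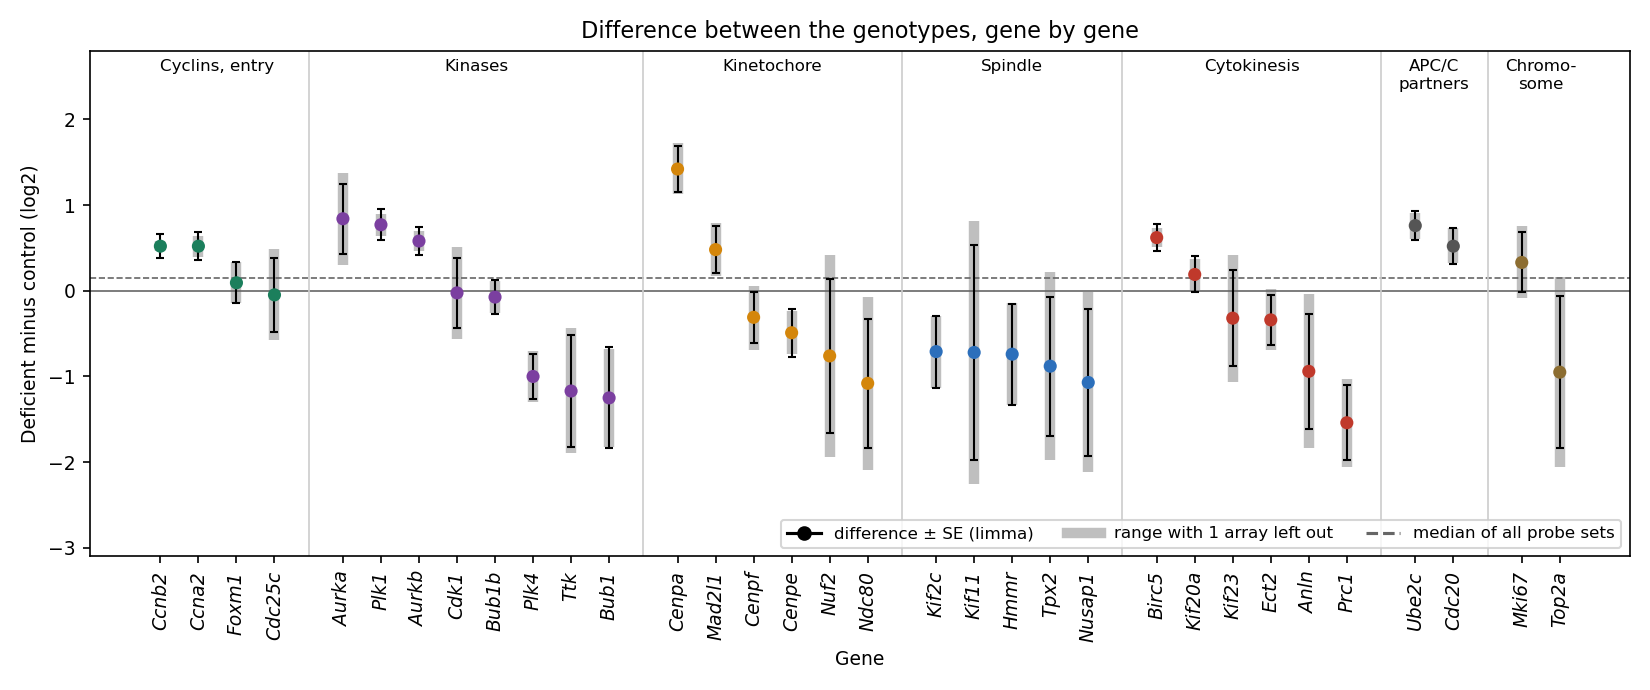
Difference in log2 value, deficient minus control (vertical axis), of each gene with limma's SE (black bar) and the range with 1 array left out (grey bar), by role. The dashed line is the median of all probe sets, 0.15. Cenpa stands highest at 1.42 and Prc1 lowest at −1.54, and the 5 spindle genes all lie below 0 with wide ranges.

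Spindle motors and microtubule-associated proteins all read lower in deficient cells by their means, with a median difference of −0.74, and all 5 had overlapping groups. Kif11, the motor Eg5 that separates the spindle poles, read 5.52 and 8.58 on the deficient arrays, against 8.54 and 7.01 on the controls. Deficient replicate 1 was lowest and deficient replicate 2 was highest, so the difference of −0.72 (SE 1.25) was smaller than its error. Tpx2, the activator of Aurora A on spindle microtubules, read 6.82 and 9.03 in deficient samples, against 8.88 and 8.74 in controls. Nusap1, a microtubule bundler, read 5.49 and 7.60 in deficient samples, against 8.12 and 7.12 in controls. In each of these 3 genes deficient replicate 2 lay within or above the controls, and deficient replicate 1 lay below them. Hmmr, a spindle and hyaluronan-binding protein, read 3.80 and 4.99 on the deficient arrays, against 5.66 and 4.61 on the controls. Kif2c, the microtubule-depolymerising motor MCAK, read 7.93 and 7.09 in deficient samples, against 8.58 and 7.86 in controls (difference −0.71, SE 0.42), and only replicate 1 of the deficient arrays reached the control range. Without deficient replicate 1 the median of the spindle genes was −0.018, and without deficient replicate 2 it was −1.98.

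Among genes of the central spindle and cytokinesis, Prc1 and Birc5 went opposite ways. Prc1, which bundles the microtubules of the central spindle, read 5.54 and 6.04 on the deficient arrays, against 7.85 and 6.82 on the controls. It was lower on both deficient arrays, with a difference of −1.54 (SE 0.44, limma adjusted p = 0.406) or 0.343-fold, and −2.06 to −1.03 with 1 array left out. Birc5, survivin of the passenger complex, read 11.12 and 10.89 in deficient samples, against 10.35 and 10.42 in controls. The groups lay apart, by 0.62 (SE 0.16, adjusted p = 0.393), and Birc5 thus shared its direction with its complex partner Aurkb. Of the passenger complex genes among the further genes below, Cdca8 differed by 0.44 (SE 0.25), without overlap. Incenp was level, at −0.069 (SE 0.36), with overlapping groups. Anln, the contractile ring scaffold anillin, read 5.89 and 5.83 on the deficient arrays, against 7.70 and 5.90 on the controls. Control replicate 2 was within 0.1 of both deficient arrays, and without control replicate 1 the difference of −0.94 (SE 0.67) was −0.039. Ect2, an exchange factor of the cleavage furrow, differed by −0.34 (SE 0.29). Kif23, the central spindle motor MKLP1, differed by −0.32 (SE 0.56), and Kif20a, its relative MKLP2, by 0.19 (SE 0.21), all 3 with overlapping groups.

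Partners of the anaphase-promoting complex both read higher. Ube2c, its ubiquitin-conjugating enzyme, read 8.64 and 8.63 on the deficient arrays, against 7.73 and 8.03 on the controls. The deficient arrays were nearly equal and above both controls (difference 0.76, SE 0.17, adjusted p = 0.373). Cdc20, its mitotic activator, read 10.22 and 10.04 in deficient samples, against 9.81 and 9.40 in controls, a difference of 0.52 (SE 0.21, adjusted p = 0.426). Of the 2 chromosome genes, Mki67, the proliferation antigen Ki-67, read 7.52 and 8.37 in deficient samples, against 7.48 and 7.75 in controls. Its groups overlapped (difference 0.33, SE 0.35). Top2a, the topoisomerase that untangles chromatids, had 2 probe sets. The brighter one read 7.47 and 9.69 in deficient samples, against 10.01 and 9.06 in controls, and differed by −0.95 (SE 0.89). The dimmer one read 3.68 and 3.96 in deficient samples, against 4.40 and 4.84 in controls, and differed by −0.80 (SE 0.23, adjusted p = 0.407), without overlap.

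Replicates of 1 genotype often lay far apart for mitotic genes. The gap between the deficient arrays exceeded 1 on the log2 scale for 11 of the 33 members (33.3%), against 8.13% of all genes. Between the control arrays it exceeded 1 for 7 members (21.2%), against 4.49%. In 5 genes, Kif11, Nuf2, Nusap1, Top2a and Tpx2, deficient replicate 2 exceeded deficient replicate 1 by over 2. All 7 members with a wide control gap, Anln, Bub1, Hmmr, Kif11, Ndc80, Prc1 and Ttk, were higher on control replicate 1. By contrast, Ube2c, Ccnb2 and Aurkb stayed within 0.31 in both pairs.

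**Figure D3:**
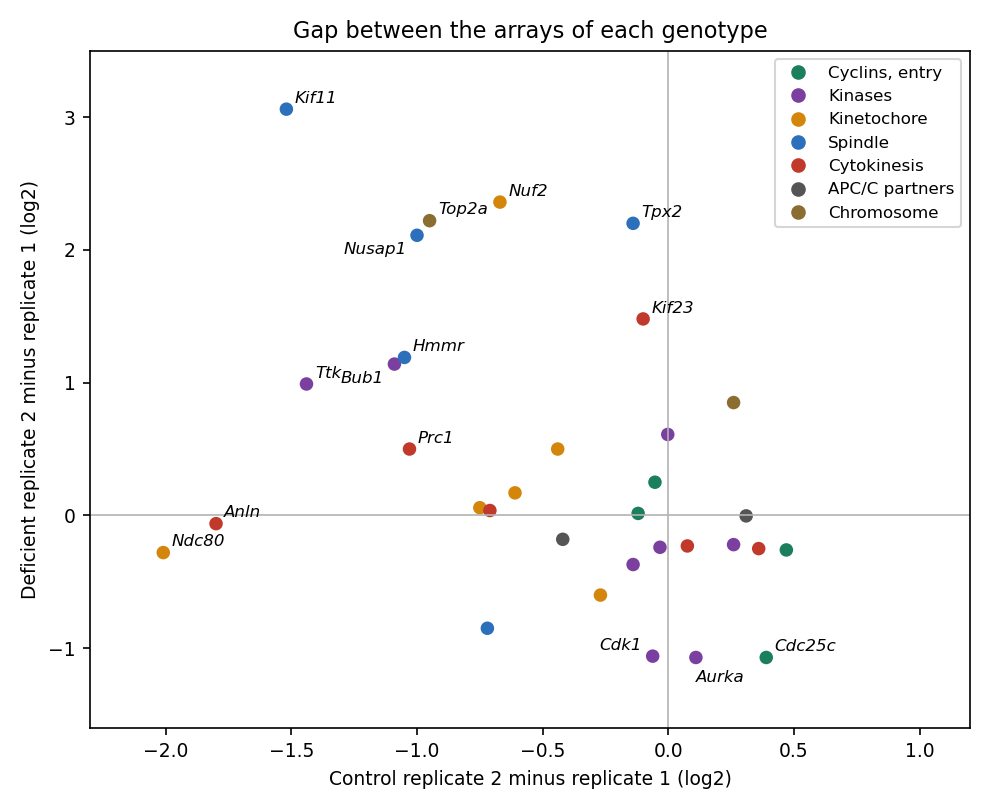
Gap between replicate 2 and replicate 1 (log2) of the deficient arrays (vertical axis) against that of the control arrays (horizontal axis), 1 point per gene, coloured by role and labelled where a gap exceeds 1. Kif11 lies farthest out, with 3.06 between the deficient arrays and −1.52 between the controls.

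The direction of a member went with the length of its gene. Genomic span, from the RefSeq annotation of GRCm38.p6, was known for all 33 genes, with a median of 23.0 kb. In the 17 genes at or under that span the median difference was 0.52, against 0.21 for all genes in that range. Of the 17, 12 read higher, among them all 10 that lay apart above the controls. Those 12 are 70.6% of the 17, against 75.7% of all 11325 genes in that range of span. The 10 are 58.8%, against 47.7%, so by these counts the short members lay near the background. In the 16 longer genes the median was −0.75, against 0.08 for all genes above that span, and 15 read lower, with Mki67 the exception. Those 15 are 93.8% of the 16, against 43.1% of all 8531 longer genes. Only 3 of the 16 lay apart below the controls (18.8%, against 22.9%), so by that measure the long members lay near the background. Of those that read lower, Kif11, Nuf2, Top2a, Tpx2, Kif23, Cenpf, Ect2 and Bub1b changed sign with 1 array left out. As a description across genes, which share the 4 arrays, Spearman's rho between span and difference was −0.69 over the 33 members (Pearson's r with log2 span −0.73). Over 19856 genes rho was −0.22. Span also went with level, since the longer members read dimmer (rho −0.71), and the difference went with the mean level (rho 0.73 over the members and −0.20 over all genes). These quantities cannot be told apart here, and the part of probe or transcript length in the directions was not tested. Transcript length and RNA quality were not in the files used.

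**Figure D4:**
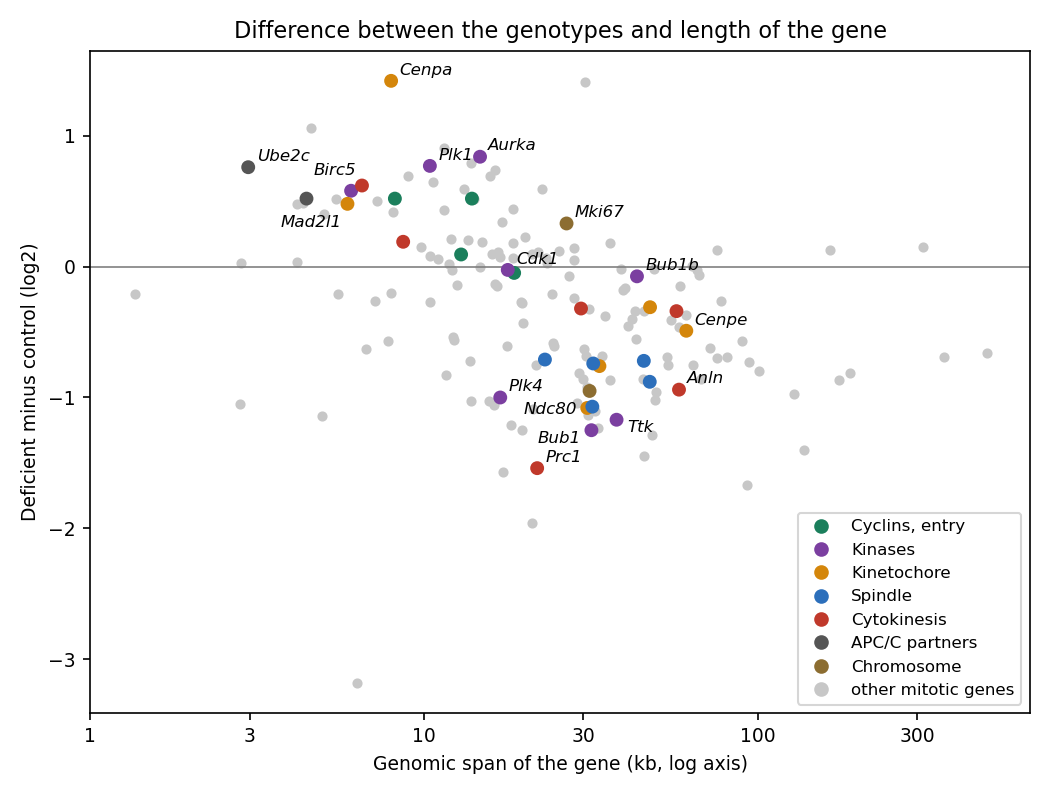
Difference in log2 value, deficient minus control (vertical axis), against genomic span in kb (horizontal log axis). Coloured points are the 33 genes by role and grey points are the 135 other mitotic genes. Short genes such as Ube2c and Cenpa lie above 0, and of the 16 coloured points beyond 23.0 kb Mki67 alone lies above it.

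Further genes of mitosis, listed by function but with earlier results of these data known, gave 135 measured of 138. No gene passed the adjusted threshold, and the median difference was −0.27. At an unadjusted p under 0.05, 7 were higher, with 6.64% of all probe sets, and 11 were lower, with 5.25%. Counts of higher and lower genes in each list below use that threshold and have the same background shares. Groups did not overlap for 42 that were lower (31.1%, against 14.0% of all probe sets) and 18 that were higher (13.3%, against 38.9%). Their median difference was −0.14 without control replicate 1 and −0.43 without control replicate 2. Other G2/M regulators had 3 higher and 4 lower of 29. E2f8, an atypical E2F repressor, read 8.43 and 8.37 in deficient samples, against 9.47 and 9.39 in controls (difference −1.03, SE 0.14, adjusted p = 0.270). Mybl2, the B-MYB partner of MuvB, read 8.99 and 9.63 in deficient samples, against 8.14 and 7.66 in controls (difference 1.41, SE 0.32, adjusted p = 0.370). Pimreg, a mitotic regulator, differed by −1.14 (SE 0.23). Mybl2 thus read higher, as did Plk1 and Cenpa, while Prc1, Plk4, Bub1 and Ttk read lower and Foxm1 did not separate. A link between these regulators and the members was not tested.

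Among other kinetochore genes 1 was higher and 2 lower of 33. Cenpu, of the inner kinetochore, read 6.41 and 6.41 in deficient samples, against 7.54 and 7.36 in controls (difference −1.04, SE 0.15, adjusted p = 0.280). Cenpk differed by −1.96 (SE 0.65) and Pmf1, of the MIS12 complex, by 0.74 (SE 0.25). Other spindle and cytokinesis genes had 1 higher and 3 lower of 34. Arhgap11a differed by −1.57 (SE 0.28), Numa1, a spindle pole protein, by −0.69 (SE 0.15) and the formin Diaph3 by −0.66 (SE 0.21). Condensin and cohesin genes had a median of −0.69 over 23, with 0 passing at an unadjusted p under 0.05 in limma. That median was −0.23 without deficient replicate 1, −0.19 without control replicate 1 and −1.20 without control replicate 2. Their lowest p belonged to Ncaph (difference −0.63), Pttg1, securin (0.50), and Cdca5, sororin (−0.63).

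Subunits and inhibitors of the anaphase-promoting complex had 2 higher and 2 lower of 16. Fbxo5, the inhibitor EMI1 that keeps the complex off until mitosis, read 4.82 and 5.69 in deficient samples, against 9.26 and 7.62 in controls. Both deficient arrays were far below both controls (difference −3.18, SE 0.69, adjusted p = 0.361), and the difference stayed between −4.01 and −2.36 with 1 array left out. Fzr1, the CDH1 activator that EMI1 inhibits, read 8.74 and 8.53 in deficient samples, against 7.51 and 7.95 in controls (difference 0.91, SE 0.22, adjusted p = 0.385). Anapc4, a scaffold subunit, differed by −1.10 (SE 0.26). DNA replication genes, the neighbouring programme of S phase, had a median of 0.028 over 37, with 4 higher and 2 lower, and with 1 array left out that median ran from −0.056 to 0.17. Their lowest unadjusted p belonged to the licensing factor Cdc6 (difference 0.48), the ribonucleotide reductase subunit Rrm2 (0.95) and the flap endonuclease Fen1 (0.56).

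**Figure D5:**
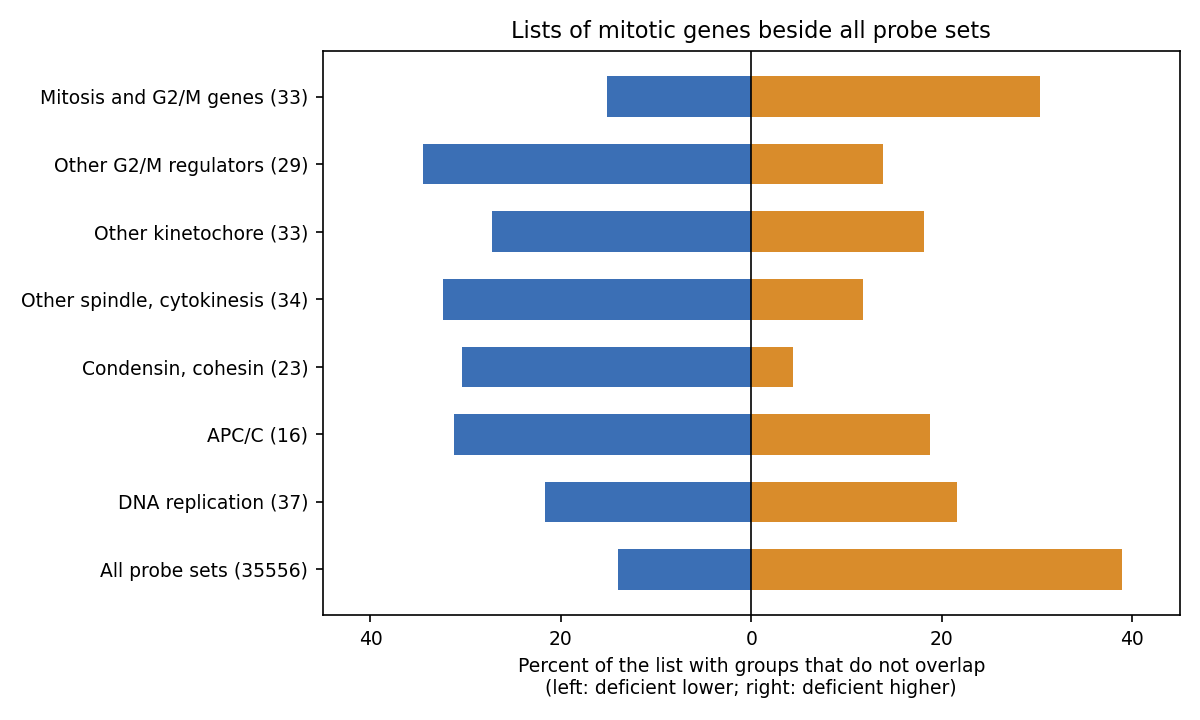
Percent of each list whose 2 groups do not overlap, with deficient lower (blue, left) and deficient higher (orange, right), and the number of genes or probe sets in brackets. In the 33 mitosis and G2/M genes 5 were lower and 10 higher, next to 14.0% and 38.9% of all probe sets.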

How the data were processed

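The authors deposited log2 values, 1 per probe set. RMA and Partek appear in the submitters' processing notes, with no version. RMA subtracts background, equalises the distributions of the arrays and combines the probes of a set. Values ran from 1.98 to 13.7, and they were used as deposited. The authors' genome build was not stated in the sources used here. Arrays have no read depth, and their number limits the precision. Gene names came from the platform annotation, with symbols updated by Entrez number through RefSeq (GRCm38.p6). Of 35556 probe sets, 21789 had 1 symbol, 1621 several and 12146 none. The probe set with the highest mean stood for a gene.

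Deficient and control arrays were compared with limma 3.58.1 (lmFit and eBayes, genotype only) in R 4.3.3, with Benjamini-Hochberg adjustment over all probe sets. The procedure was tested on simulated data. Differences are deficient minus control. An exact permutation test of 2 against 2 arrays cannot go below 0.333 and was not used. The members, lists and tests were chosen with earlier results of these data known. All members were named, with Gabpa, the gate and marker genes given, and the 3 genes with the lowest unadjusted p in each further list. Plots used matplotlib 3.10.9 (Python 3.11.15).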

Additional observations from a re-analysis of the deposited data

How the results depend on the processing

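Besides leaving out each array, the alternatives were cyclic loess, subtraction of column medians, trended and robust variance, a filter on the dimmer 50% of probe sets, a replicate block and the mean over the probe sets of a gene. No member was called under any of these 10 settings, with a lowest adjusted p of 0.208, and no member changed sign while all 4 arrays were kept. Trended variance, the filter and the block left each gene's difference unchanged, so none of them could turn its sign. The mean over probe sets could change only Top2a, and column medians shifted every difference by the same amount. The kept signs are therefore largely fixed by these settings. Without the dimmer 50% of probe sets, Cenpf, Hmmr, Bub1 and Cenpe, all lower in the comparison above, dropped out. The median difference of the members left was −0.048. For the anaphase-promoting complex partners the median was 0.56 with column medians subtracted. With 1 array left out, 0 to 6 members were lower and 3 to 5 higher at an unadjusted p under 0.05, the median of all members ran from −0.37 to 0.066, that of the entry genes from 0.20 to 0.44 and that of the kinases from −0.41 to 0.31. Of the 33 members, 21 kept their sign in every setting. The other 12 changed sign with 1 array left out, with log2 differences from −2.25 to 0.81 for Kif11, −1.94 to 0.42 for Nuf2, −2.06 to 0.16 for Top2a and −1.98 to 0.22 for Tpx2. They ran from −1.06 to 0.42 for Kif23, −0.56 to 0.51 for Cdk1, −0.58 to 0.49 for Cdc25c, −0.69 to 0.061 for Cenpf and −0.69 to 0.018 for Ect2. For Bub1b they ran from −0.26 to 0.11, for Foxm1 from −0.14 to 0.33 and for Mki67 from −0.09 to 0.76. The cause was not tested. Replicate numbers gave no sign of pairing (correlation of same-numbered deviations −0.088 over probe sets), and with the replicate block 5 members were higher and 2 lower at an unadjusted p under 0.05, with 3.77% and 4.69% of all probe sets. Under the block Prc1, Ccna2 and Ccnb2 no longer passed that threshold in limma, and Kif2c, which had not, did.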

Other observations

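Length of the gene also went with the gaps between arrays of 1 genotype. Across the 33 members Spearman's rho between span and the gap of replicate 2 over replicate 1 was 0.44 for the deficient arrays and −0.61 for the controls, as a description over genes that share the arrays. Across the 135 other mitotic genes rho was 0.41 for the deficient arrays and −0.38 for the controls, and across 19856 genes it was 0.11 and −0.15. In those 135 genes, the 68 that spanned 23.0 kb or less had a median difference of 0.03, and the 67 longer ones −0.58, with 56 of 67 below 0. Fbxo5, which spans 6.31 kb, had a difference of −3.18 and thus lay against that trend.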
